A study of Homo sapiens with 7 samples.

Results

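Regions of changed chromatin accessibility whose nearest gene encodes a protein of splicing or RNA processing were examined in Kasumi-1 cells, an established human line of acute myeloid leukaemia with the RUNX1-RUNX1T1 fusion. A region was taken where its gene symbol began with SF3A, SF3B, SNRP, SRSF, HNRNP, PRPF or CPSF, or with DDX, DHX, RBM or LSM followed by a digit. This gave 92 of the 8815 listed regions (1.04%), at 75 gene symbols, and the choice used no measured value. The assay was ATAC-seq, in which a transposase inserts adapters into open chromatin. All cells were puromycin-selected Kasumi-1 cells given lentiviral shRNA, either against PHF19, an accessory subunit of the Polycomb repressive complex PRC2 (3 libraries), or a scrambled sequence (4 libraries). The series title calls the controls scrambled shRNA, while their treatment label reads WT. Selection with 2 µg/ml puromycin began 48 hours after transfection and lasted 24 hours or more, and 10000 cells of this 1 line went into each library. Nothing in the labels says that the libraries of a group were separate cultures, and the deposited p-values then reflect only library-to-library spread, possibly technical.

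The spliceosome removes introns from pre-mRNA. It is built from small nuclear ribonucleoproteins (snRNPs), each an RNA held by a ring of Sm or LSm proteins and joined by particle-specific proteins, and RNA helicases remodel it at each step. SR proteins generally promote the use of exons, hnRNP proteins coat nascent RNA and often oppose it, and the cleavage and polyadenylation specificity factors (CPSF) recognise and cut the 3′ end of the transcript. The symbols DDX and DHX name helicases with a DEAD or DEAH motif, of which only some act in splicing. Others make ribosomes, unwind mRNA for translation or sense viral RNA. Recurrent mutations of SF3B1, SRSF2, U2AF1 and DDX41 are known in myeloid disease.

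Promoter sequences are shown for 1 listed gene of each class, chosen after the values were seen, because most of the changed regions lay at gene starts. Each window runs from 250 bases before to 50 bases after the RefSeq start in GRCh38.p14, which is not the build of the deposited regions. The windows are LSM8 (chr7:118183914-118184213, plus strand), SRSF10 (chr1:23980278-23980577, minus strand), HNRNPA2B1 (chr7:26200697-26200996, minus strand), DDX51 (chr12:132144270-132144569, minus strand), DHX36 (chr3:154324438-154324737, minus strand), RBM45 (chr2:178112187-178112486, plus strand) and CPSF3 (chr2:9423404-9423703, plus strand). They are written 5′ to 3′ on the strand of the gene. Capitals mark matches on either strand to the ETS core CGGAAG, the CCAAT box CCAAT, the cyclic AMP response element TGACGTCA and a palindrome bound by ZBTB33.
LSM8: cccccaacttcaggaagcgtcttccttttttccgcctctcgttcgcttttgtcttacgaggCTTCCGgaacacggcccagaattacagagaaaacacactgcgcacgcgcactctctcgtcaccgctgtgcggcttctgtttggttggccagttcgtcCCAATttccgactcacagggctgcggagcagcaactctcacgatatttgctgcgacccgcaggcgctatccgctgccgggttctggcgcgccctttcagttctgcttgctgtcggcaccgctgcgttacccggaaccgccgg
SRSF10: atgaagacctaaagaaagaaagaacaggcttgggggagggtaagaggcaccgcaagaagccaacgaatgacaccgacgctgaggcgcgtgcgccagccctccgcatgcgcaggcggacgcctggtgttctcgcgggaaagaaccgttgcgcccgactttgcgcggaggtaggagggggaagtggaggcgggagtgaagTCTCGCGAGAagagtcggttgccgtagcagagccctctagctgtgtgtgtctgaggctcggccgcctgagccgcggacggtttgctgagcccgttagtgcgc
HNRNPA2B1: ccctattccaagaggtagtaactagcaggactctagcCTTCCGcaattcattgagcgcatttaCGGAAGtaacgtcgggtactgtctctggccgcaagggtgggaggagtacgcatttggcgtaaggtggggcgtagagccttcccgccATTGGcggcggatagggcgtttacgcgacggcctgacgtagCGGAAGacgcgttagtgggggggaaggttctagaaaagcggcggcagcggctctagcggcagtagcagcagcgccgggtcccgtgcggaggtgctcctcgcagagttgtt
DDX51: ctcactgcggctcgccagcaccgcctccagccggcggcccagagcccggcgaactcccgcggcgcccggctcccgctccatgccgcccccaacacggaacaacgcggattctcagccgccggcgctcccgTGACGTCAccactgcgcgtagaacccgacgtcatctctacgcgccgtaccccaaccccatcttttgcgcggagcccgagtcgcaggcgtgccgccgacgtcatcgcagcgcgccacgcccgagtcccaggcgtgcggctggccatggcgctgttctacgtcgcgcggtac
DHX36: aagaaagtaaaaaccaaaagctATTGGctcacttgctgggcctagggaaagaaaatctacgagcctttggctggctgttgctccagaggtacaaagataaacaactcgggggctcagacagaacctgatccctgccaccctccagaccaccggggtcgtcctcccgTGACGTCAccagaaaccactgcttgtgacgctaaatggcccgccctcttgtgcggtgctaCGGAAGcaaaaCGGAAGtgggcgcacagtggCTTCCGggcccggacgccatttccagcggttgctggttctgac
RBM45: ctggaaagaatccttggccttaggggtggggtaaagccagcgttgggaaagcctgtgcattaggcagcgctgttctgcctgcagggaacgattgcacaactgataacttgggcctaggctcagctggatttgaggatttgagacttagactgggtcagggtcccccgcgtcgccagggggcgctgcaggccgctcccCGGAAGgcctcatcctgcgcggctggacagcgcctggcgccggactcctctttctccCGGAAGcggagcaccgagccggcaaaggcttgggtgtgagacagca
CPSF3: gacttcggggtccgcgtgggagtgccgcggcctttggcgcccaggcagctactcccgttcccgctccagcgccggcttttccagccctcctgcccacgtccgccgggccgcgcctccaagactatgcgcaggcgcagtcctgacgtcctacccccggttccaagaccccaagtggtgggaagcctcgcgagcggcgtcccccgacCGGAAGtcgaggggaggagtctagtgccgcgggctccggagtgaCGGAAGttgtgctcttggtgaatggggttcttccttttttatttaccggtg

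In these windows HNRNPA2B1 and DHX36 each had 3 ETS core matches, RBM45 and CPSF3 had 2, LSM8 had 1, and SRSF10 and DDX51 had none. DDX51 and DHX36 each held 1 cyclic AMP response element. SRSF10 held the ZBTB33 motif.

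All 92 regions were more accessible in the PHF19 knockdown and 0 were less accessible. The whole list is nearly as one-sided, with 8615 of its 8815 regions increased and 200 decreased. For scale, 16.4% of the estimated 52675 regions the authors tested were listed as increased and 0.38% as decreased, at an FDR under 0.05. How many tested regions belonged to these genes was unknown here, since only regions past that threshold are listed. Folds, FDR and mean normalised read counts of single regions come from the authors' deposited tables, with no value per library and therefore no SD or n. Folds are knockdown over control on the log2 scale. Positions are the deposited ones, in hg19. Library depths are unknown, and the way reads were normalised is not given in the sources used here. Lists of changed regions hold no level for unchanged genes, so the cell identity could not be checked against its markers.

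Of the 184 protein-coding genes whose RefSeq symbol fits the rule, 72 had at least 1 increased region, or 39.1% (95% Clopper-Pearson interval 32.0 to 46.6%, counting error only). Over all protein-coding genes this share was 25.2%. At promoters, within 3 kb of a transcription start site (TSS), the shares were 35.9% (66 genes) and 17.5%. A region covered the TSS itself at 54 of the 184 genes, and at 13.6% of all protein-coding genes. The 72 genes comprised 58 with 1 region, 13 with 2 and DHX36 with 3. The remaining 112 genes were absent from both lists, and absence is no proof of unchanged accessibility. The other 3 symbols were the pseudogenes HNRNPKP3 and DDX11L2 and the antisense gene RBM15-AS1, with 5 regions in all. DDX11L2 has near-identical copies near chromosome ends, which makes the source of its reads uncertain (log2 folds 1.23 and 0.88).

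**Figure D1:**
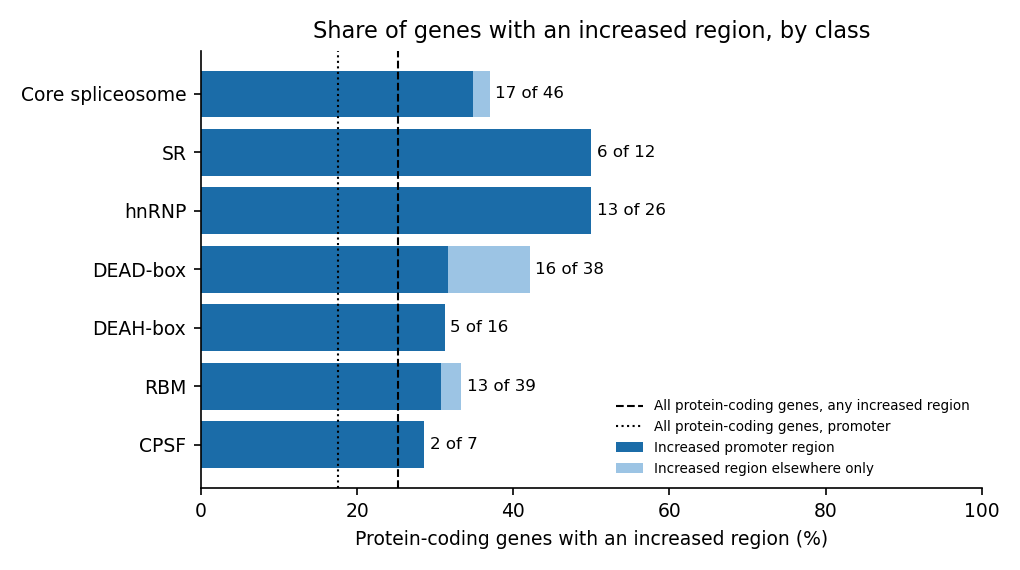
Share of protein-coding genes (%) with an increased region in each class, split into genes with a promoter region and genes with regions elsewhere only, with the count of genes beside each bar. Dashed and dotted lines mark the shares over all protein-coding genes, 25.2% for any region and 17.5% for promoters, and every class lies to the right of both. Intervals are not drawn, and those of core spliceosome, SR, DEAH-box, RBM and CPSF genes include 25.2%.

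By class, an increased region was listed at 6 of 12 SR protein genes, 13 of 26 hnRNP genes, 16 of 38 DEAD-box genes, 17 of 46 core spliceosome genes (SF3A, SF3B, SNRP, PRPF and LSM), 13 of 39 RNA-binding motif (RBM) genes, 5 of 16 DEAH-box genes and 2 of 7 CPSF genes. The core spliceosome class was set by symbol alone, and some of its LSM genes, such as LSM11 and LSM14A, encode proteins that act elsewhere. The shares ran from 28.6% for CPSF to 50% for SR and hnRNP genes. Their intervals overlapped throughout, for example 23.2 to 52.5% for core spliceosome and 29.9 to 70.1% for hnRNP genes. Those of core spliceosome, SR, DEAH-box, RBM and CPSF genes included the 25.2% of all protein-coding genes. With an FDR of at most 0.01 the SR share was 16.7% and that of hnRNP genes 34.6%, beside 13.9% of all protein-coding genes. At a log2 fold of 1 or more, they were 0 and 23.1%, beside 11.3%. DEAH-box genes were below the share of all protein-coding genes at both limits, with 12.5 and 6.25%. CPSF genes had 14.3 and 0%. Core spliceosome, DEAD-box and RBM genes stayed above it at both limits. The SR, hnRNP, DEAH-box and CPSF genes with a region all had one at the promoter. Distal regions only were listed at 4 of the 16 DEAD-box genes with a region. The same held for 1 of the 17 core spliceosome genes and 1 of the 13 RBM genes.

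The 92 regions were mostly promoters. In the deposited annotation 77 (83.7%, interval 74.5 to 90.6%) lay within 3 kb of a TSS, 9 were intergenic, 5 intronic and 1 lay in the 3′ untranslated region of DDX25. Among all increased regions the promoter share was 50.1%. The median log2 fold was 0.92 (quartiles 0.76 and 1.11), or 1.90-fold, beside 0.97 for all increased regions. By position, regions covering a TSS had a median of 0.81 at these genes (55 regions) and 0.87 over all genes, other promoter regions 0.96 (22 regions) and 0.94, and regions beyond promoters 1.03 (15 regions) and 1.02. The median of the authors' mean over all libraries was 32.4 reads, against 18.3 reads for all increased regions. For regions covering a TSS the medians were 38.6 and 37.3 reads. The FDR was 0.01 or lower in 50 of the 92 regions (54.3%) and in 45.9% of all increased regions.

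**Figure D2:**
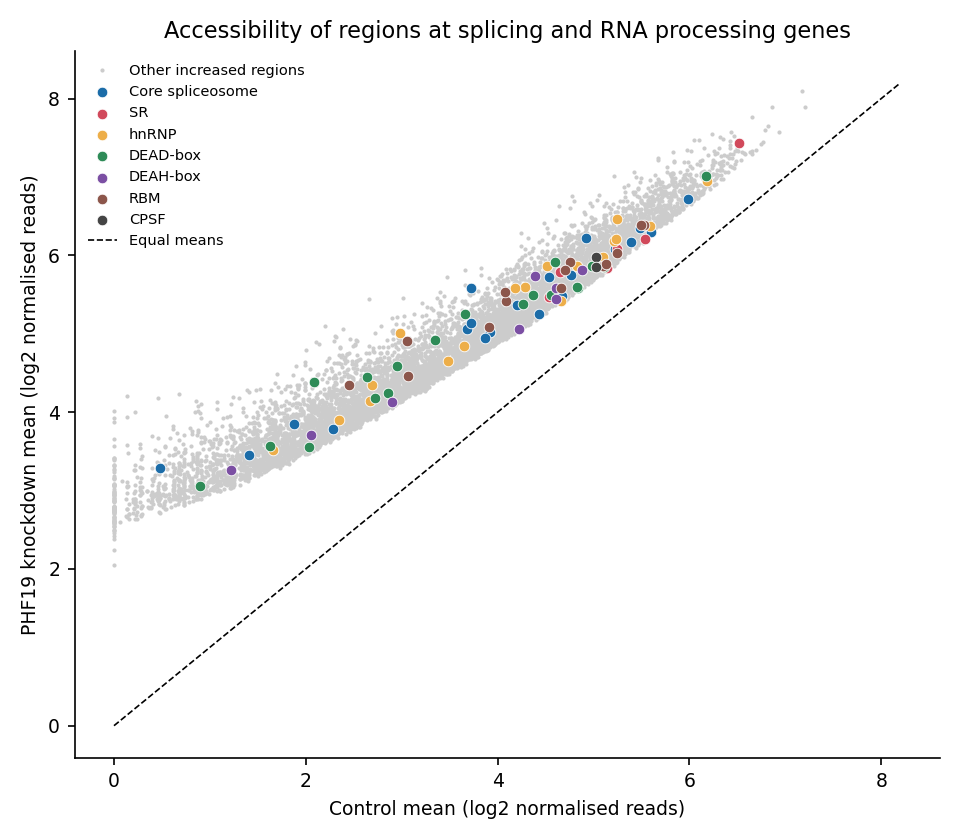
Mean normalised reads (log2) in control and knockdown libraries for each increased region at protein-coding genes of the 7 classes (coloured) over all other increased regions (grey), with the line of equal means dashed. Every coloured point lies above the line, from LSM8 and DDX25 at the low end to SRSF2 at the high end, and the empty band beside the line holds folds that were not listed.

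Among core spliceosome genes, LSM8 had the largest fold. Its protein is the subunit that sets the nuclear LSm ring, which binds U6 RNA, apart from the cytoplasmic ring. The region over its TSS (chromosome 7, 117823937 to 117824337) had a knockdown mean of 48.1 reads and a control mean of 13.2, a log2 fold of 1.59 (FDR 1.06e-06). A second region 30.1 kb upstream had 9.80 and 1.39 reads (1.33). LSM5 (1.05) and LSM3 (0.62), which encode subunits of both LSm rings, also rose at the TSS. So did LSM11, of the U7 snRNP that processes histone mRNA (1.04), and LSM14A, a protein of mRNA processing bodies (0.86). In all, 5 of 13 LSM genes had an increased region (38.5%, interval 13.9 to 68.4%, beside 25.2% of all protein-coding genes). LSM8 and LSM5 both lie on chromosome 7.

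Of the SNRP genes for particle-specific proteins, SNRPA1 and SNRPB2, of the U2 snRNP, rose at the TSS. SNRPA1, whose protein contains leucine-rich repeats, had 74.5 knockdown and 30.2 control reads (chromosome 15, 101835295 to 101835695, log2 fold 1.14, FDR 0.000148). SNRPB2, its partner in binding U2 RNA, had 35.2 and 13.2 reads (1.17, FDR 0.000971). The U1-specific genes SNRPA and SNRPC had no listed region. Of the 8 Sm ring genes, SNRPB and SNRPE had one. The interval of that share ran from 3.19 to 65.1% and included the 25.2% of all protein-coding genes. At SNRPE the TSS region had 53.7 and 27.2 reads (0.84).

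SF3A and SF3B form the part of the U2 snRNP that holds the branch point, and 4 of their 9 genes had increased regions, all of SF3B. The interval of that share (44.4%) ran from 13.7 to 78.8% and included the 25.2% of all protein-coding genes. SF3B1, the scaffold that clamps the branch helix, had 44.8 knockdown and 25.6 control reads over its TSS (chromosome 2, 198299651 to 198300051, 0.70, FDR 0.0355). A weaker intergenic region 8.81 kb upstream of SF3B1 had 14.4 and 3.66 reads and the larger fold (1.20, FDR 0.00846). SF3B2 (0.69), SF3B5 (0.77) and SF3B6 (0.68) rose at the TSS to similar degrees. SF3B6 encodes the small subunit at the branch adenosine and had 106 and 63.4 reads, the highest means among the listed core spliceosome genes.

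Of 12 PRPF genes, 4 had a region (33.3%, interval 9.92 to 65.1%, beside 25.2% of all protein-coding genes). PRPF31 (0.94) and PRPF3 (0.81), proteins of the U4/U6 snRNP, and PRPF40B (0.77), related to a yeast U1 snRNP protein, rose at the TSS. The PRPF39 region (0.99) lay 34.6 kb away, inside an intron of TOGARAM1. PRPF8, the scaffold of the catalytic centre, had no listed region. Among 11 helicases of the spliceosome, DDX41 and DHX15 had one (18.2%, interval 2.28 to 51.8%, which includes the 25.2% of all protein-coding genes).

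SR protein genes had a median log2 fold of 0.75 over 6 regions, each 401 bp wide. Over the TSS their median was 0.79 in 5 regions, beside 0.78 for CPSF and 0.79 for RBM genes. SRSF2, which binds exonic enhancers, had 173 knockdown and 91.7 control reads over its TSS (chromosome 17, 74733390 to 74733790, 0.85, FDR 0.000225), the highest means of all 92 regions. SRSF11 had 55.2 and 25.1 reads and the largest fold of the class (0.96). SRSF10, which acts as a splicing repressor when dephosphorylated, had 44.1 and 23.2 reads (0.79). SRSF1 (0.70), SRSF4 (0.61) and SRSF6 (0.59) were lower, and SRSF6 had the smallest fold of all 92 regions. The SRSF2 knockdown mean was above that of every other SR gene with a listed region, and the 6 control means ran from 23.2 to 91.7 reads. SRSF3, SRSF5, SRSF7, SRSF8, SRSF9 and SRSF12 had no listed region.

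In the hnRNP class, HNRNPA2B1, which binds and carries RNA, had the region with the largest fold. Just inside the gene, 197 bp from the TSS, the knockdown mean was 32.3 reads and the control mean 7.89 (chromosome 7, 26239816 to 26240216, log2 fold 1.61, FDR 2.29e-05). Over its TSS they were 88.0 and 38.0 (1.09, FDR 3.61e-05). HNRNPU, a scaffold protein of the nucleus, had log2 folds of 0.89 over the TSS and 1.20 at 1.09 kb downstream. HNRNPH1, which binds G-rich RNA, had 1.14 in both its regions, and its paralog HNRNPH3 had 0.92 just upstream of the TSS. HNRNPK, which binds C-rich RNA, had 0.77 over the TSS, with 63.1 and 34.2 reads, and 0.91 downstream. HNRNPA1 had high means, 124 and 72.7 reads, and a small fold (0.69), as did HNRNPC, which binds nascent transcripts (0.70). HNRNPA1 and HNRNPK have many processed pseudogenes, and whether such copies contribute reads to these regions was not tested. HNRNPD, which binds AU-rich elements (0.84), HNRNPA0 (0.84), HNRNPM (1.04), HNRNPUL1 (1.07) and HNRNPDL (0.65) made up the rest with HNRNPAB. The 2 HNRNPKP3 regions lay 423 and 499 kb from that pseudogene.

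Of the 13 hnRNP genes with a region, 5 had a region over the TSS and another within the promoter, HNRNPA2B1, HNRNPAB, HNRNPH1, HNRNPK and HNRNPU. The same held for DDX3X, DHX36 and SNRPB. In all 8 genes the flanking region had fewer control reads than the TSS region, and in 7 it lay downstream of the TSS. The flanking region had the larger log2 fold in 5 of 8. The median difference was 0.07, while SNRPB (0.68 over the TSS, 1.17 at 415 bp) and HNRNPA2B1 differed by 0.49 and 0.52. Among all 320 genes with such a pair, the flanking region had fewer control reads in 83.1%, lay downstream in 69.4% and had the larger fold in 58.8%, with a median difference of 0.08. With the difference of the group means in place of the deposited fold, chosen after seeing the data, the flanking region was larger in 7 of 8, all but DDX3X, with a median difference of 0.32. Over the 320 genes this gave 70.9% and 0.24.

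**Figure D3:**
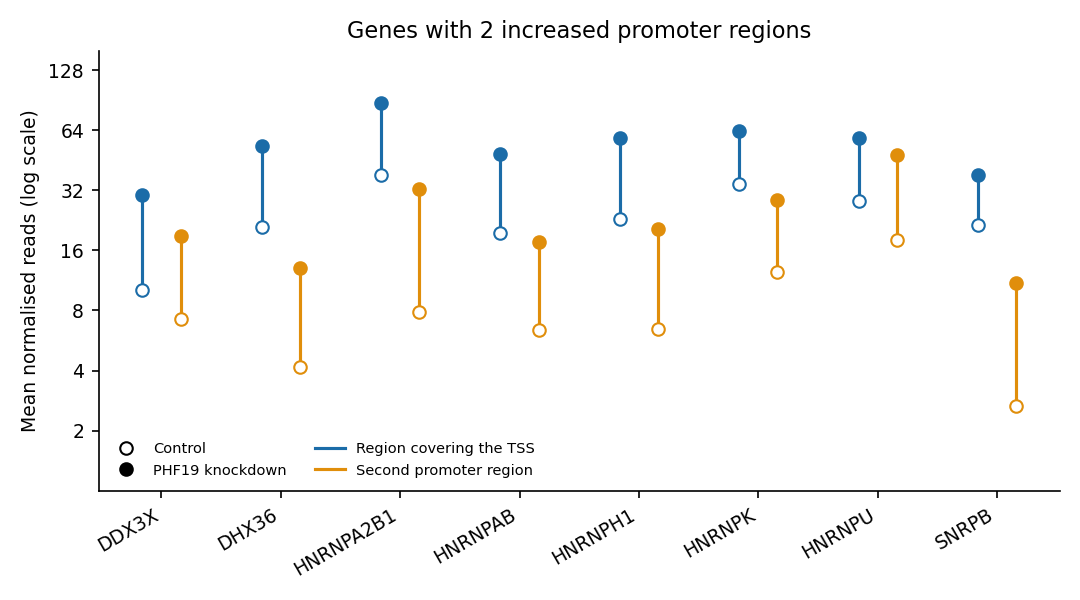
Mean normalised reads (log scale) in control (open) and knockdown (filled) libraries for the 8 genes with a region over the TSS (blue) and a second promoter region (orange). The orange control point lies below the blue one in every gene, from 18.1 reads at HNRNPU to 2.65 reads at SNRPB.

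The DEAD-box class joined helicases of different processes. In ribosome production act DDX51 (log2 fold 1.30, 38.2 and 12.6 reads over the TSS), DDX18 (1.13), DDX54 (0.76), DDX21 (0.65) and DDX10. The DDX10 region had the largest fold of all 92 (1.64, FDR 0.000185), but it lay 330 kb from the TSS, so its link to the gene is nearness alone. DDX3X, which helps mRNAs with structured leaders to be translated, had 30.4 and 10.2 reads over its TSS (1.27). DDX5 had the highest means among the listed genes of the class, 129 and 72.0 reads (0.77), and its paralog DDX17 rose less (0.64). Both act in splicing and as transcription cofactors. DDX6, which represses and decaps mRNA, had 48.4 and 28.3 reads over a wide region of 1051 bp (0.68). DDX59 had 58.5 and 31.6 reads 239 bp from its TSS (0.76).

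DDX41, a helicase found in the spliceosome, had 45.1 knockdown and 20.6 control reads at its TSS (chromosome 5, 176943946 to 176944346, 0.93, FDR 0.00458). DDX1, of the tRNA ligase complex, had 0.93 at the TSS and 1.01 in an intergenic region 45.7 kb downstream. The interferon-inducible relatives DDX60L (1.18, TSS) and DDX60 (1.16, intronic) both rose. The testis genes DDX25 and DDX53 had distal regions only, and those of DDX53 (1.27 and 0.92) lay in an intron of the antisense RNA gene PTCHD1-AS.

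DHX36, which unwinds G-quadruplexes, was the gene with 3 regions. Its TSS had 53.2 and 21.0 reads (1.14, FDR 0.00026), a region 317 bp downstream had 13.1 and 4.14 reads (1.06), and 1 in its intron 17 had 9.59 and 2.33 reads (1.10). DHX9, or RNA helicase A, had 47.8 and 24.5 reads (0.82), DHX37, a ribosome assembly helicase, 0.81, and DHX30, a mitochondrial RNA helicase, 0.68. DHX15, which takes spent spliceosomes apart, had 0.70 at the promoter and 0.86 at 91.1 kb upstream. The spliceosomal DHX8, DHX16 and DHX38 had no listed region.

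Among RBM genes, RBM33 had the largest fold, with 30.1 and 8.31 reads 45 bp from its TSS (1.38), and a distal region at 0.95. An intergenic region 209.9 kb from RBM43 had 20.3 and 5.46 reads (1.29). RBM45 (1.23), RBM22, a protein at the active site of the spliceosome (1.10), RBM41 (1.04) and the U1-associated regulator RBM25 (0.99) came next over the TSS. RBM7, of a complex that feeds transcripts to the nuclear exosome (0.79), RBM15B, of the RNA methyltransferase complex (0.69), and RBM6 (0.63) were lower, as were RBM11 (0.79), RBM27 (0.75) and RBM42 (0.65). In the CPSF class, CPSF3, the endonuclease that cuts pre-mRNA, had 63.3 and 32.6 reads (chromosome 2, 9563481 to 9563881, 0.85, FDR 0.00259), and CPSF6, of the cleavage factor that binds upstream elements, had 57.7 and 32.6 reads (0.71). CPSF1, CPSF2, CPSF4 and CPSF7 had no listed region.

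**Figure D4:**
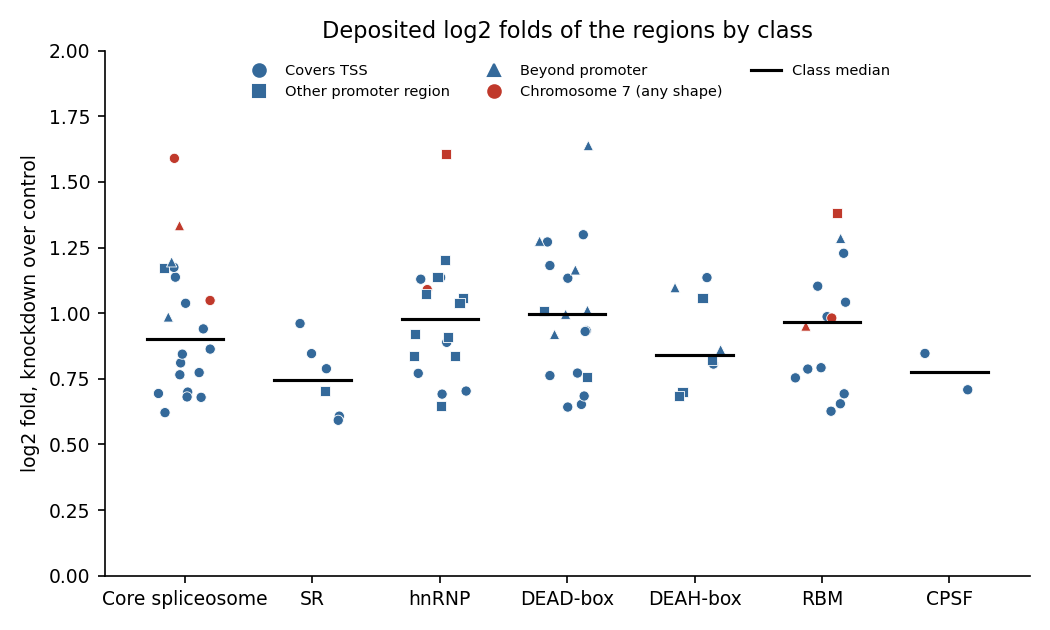
Deposited log2 fold (knockdown over control) of every increased region at protein-coding genes by class, with shape for position, red for chromosome 7 and a bar for the class median. SR genes lie between 0.59 and 0.96, and red points include LSM8 at 1.59 and HNRNPA2B1 at 1.61.

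Chromosome 7 held 8 of the 92 regions, at LSM8, LSM5, HNRNPA2B1, RBM28 and RBM33. Their median log2 fold was 1.21, and 0.89 for the other 84 regions. All increased regions on chromosome 7 had a median of 1.05, and those elsewhere 0.96. Increased regions were listed at 5 of 8 splicing and RNA processing genes on chromosome 7 and at 51.5% of all its protein-coding genes. On the other chromosomes the shares were 38.1% (67 of 176) and 24.0%.

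Across the 92 regions the fold was larger where the mean read count was lower (Pearson r = −0.53, Spearman rho = −0.62, on log2 scales, as a description). All 8615 increased regions gave −0.39 and −0.46. These points share the same libraries, and the lists hold only regions past the FDR threshold.

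Some regions lay at genes whose start is close to that of a divergent neighbour. Whether 1 region served both genes was not tested. By RefSeq starts, a protein-coding partner within 1 kb in the opposite, divergent direction was sought for each gene with a known promoter window. It was found for 12 of 49 of these genes with a region over the TSS. It was found for 24 of 96 with no listed region, a similar share, and for 23.6% of all 161. Among all protein-coding genes the share was 12.3%, and 16.6% among those with a region over the TSS. Partners of genes with a region over the TSS included CBX3 for HNRNPA2B1, AVL9 for LSM5, LRRC40 for SRSF11, NOC4L for DDX51 and ITGB1BP1 for CPSF3. The deposited annotation gives each region to 1 gene only. Of 96 genes with a promoter window and no listed region, 9 had a divergent partner of any gene type with an increased promoter region, and in 8 of them the partner was protein-coding. They were DDX27 (partner STAU1), DDX28 (DUS2), DDX42 (CCDC47), DHX38 (TXNL4B), HNRNPH2 (GLA), PRPF38A (ORC1), RBM10 (NDUFB11), RBM15 (RBM15-AS1) and SF3A2 (PLEKHJ1). The partner regions had log2 folds from 0.64 at TXNL4B to 0.89 at GLA. At RBM15-AS1, which faces the RNA methyltransferase cofactor gene RBM15, reads were 115 and 67.5 (0.70). Counting these 9 genes raised the share with a region from 39.1 to 44.0%, and the same step raised that of all protein-coding genes to 27.3%.

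Promoter windows were found for 161 of the 184 genes, 49 of them with a region over the TSS. Windows and regions were matched by gene and not by position. A window may therefore lie at another start of the gene than the one its region covered. The ETS core CGGAAG, on either strand, was present in 51.0% of those 49 and in 46.9% of the 96 windows of genes with no listed region. It was present in 25.6% of all 15843 protein-coding windows and in 40.8% of those with a region over the TSS. The GC box GGGCGG was present in 57.1% of the 49, 59.4% of the 96 and 58.5% of all windows, and in 71.4% of all windows with a region over the TSS. The CCAAT box was found in 38.8%, 55.2% and 36.4% of the 49, the 96 and all windows, and in 37.1% of all windows with a region over the TSS. The YY1 motif AANATGGC was found in 14.3%, 20.8% and 7.92%, and in 11.8% of all windows with a region over the TSS. The 7 of the 49 with a match were SF3B1, SF3B2, LSM3, HNRNPC, DDX17, RBM15B and RBM25. TATAAA was found in 6.12%, 6.25% and 9.63%. The ZBTB33 motif was found in 3 of the 49 (HNRNPK, LSM3 and SRSF10), in 1 of the 96, in 0.669% of all windows and in 1.67% of all with a region over the TSS. Overlaps between matches of these motifs were found in at most 2 promoters of these genes per pair of motifs. The median CpG ratio (observed over expected) was 0.94 in the 49, 0.88 in the 96, 0.76 in all windows and 0.88 in all windows with a region over the TSS.

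**Figure D5:**
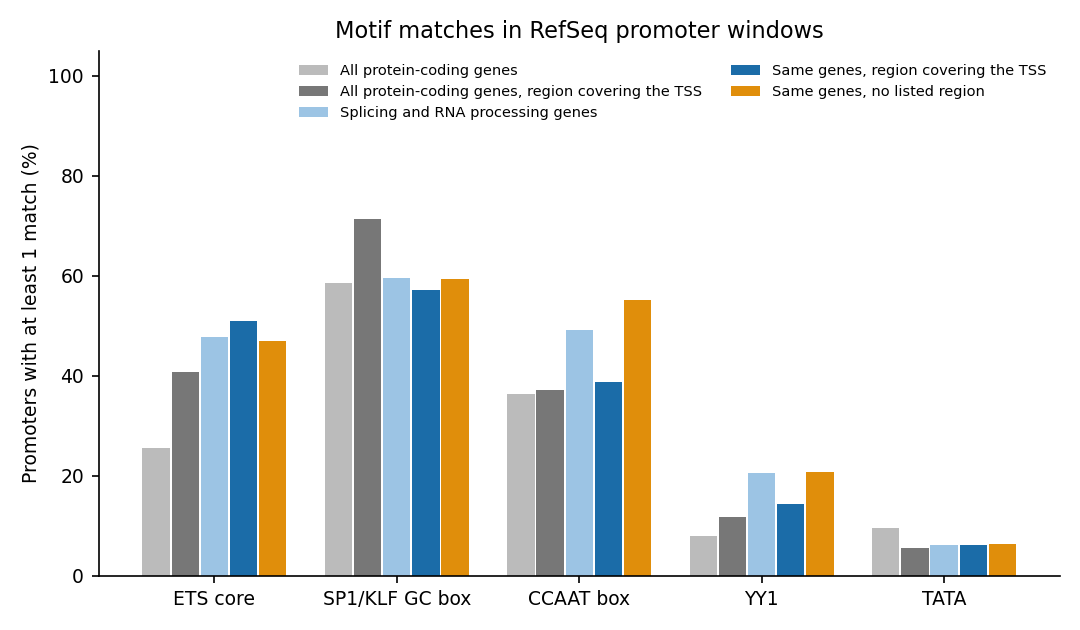
Share of RefSeq promoter windows (%) with at least 1 match to each of 5 motifs on either strand, for all protein-coding genes, those with a region over the TSS, splicing and RNA processing genes, and the latter with a region over the TSS or with no listed region. The ETS core bar is at 25.6% for all genes and at 40.8% for all genes with a region over the TSS. For the splicing and RNA processing genes it is between 46.9 and 51.0%.

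Other genes of these pathways, whose symbols fall outside the rule, were counted the same way. Of 178 such genes in 7 lists, 79 (44.4%) had an increased region, 75 of them at a promoter, and 1 had a decreased one. Over all protein-coding genes the shares were 25.2% for any increased region, 17.5% at a promoter and 0.818% for a decreased one. The interval of 5 of the 7 lists included 25.2%. U1, U2 and 3′ splice site factors had 9 of 21, including U2AF1, which reads the 3′ splice site (log2 fold 1.27, 60.1 and 21.7 reads), LUC7L2, a U1-associated protein (1.21, on chromosome 7), and HTATSF1 (1.65, 42.7 and 10.6 reads). ZRSR2 had no listed region. Tri-snRNP and Prp19-related proteins had 16 of 32, with CWC27 (1.45, intronic, 154 kb from the TSS), CWC22 (1.40) and TXNL4A (1.17) the largest. Splicing regulators such as SYNCRIP (1.25) and PTBP2 (1.22) had 23 of 42.

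Splicing kinases and snRNP assembly factors had 8 of 19, led by the kinases DYRK1A (1.49), CLK1 (1.22) and SRPK2 (1.16). That SRPK2 region lay in intron 1, 43.5 kb from the TSS, on chromosome 7. The promoter regions of SRPK2 had 0.97 and 0.91. Exon junction and mRNA export genes had 6 of 16, with THOC7 (1.15), THOC2 (1.05) and EIF4A3 (0.97). The 3′ end processing genes outside CPSF also had 6 of 16, with CSTF2T (1.05), CSTF2 (1.01) and PCF11 (1.01). RNA decay genes had 11 of 32, with CNOT8 (1.26), CNOT2 (1.25) and UPF3A (1.19). The decreased region was an intron of PARN, which encodes a deadenylase, with the knockdown mean at the floor of 1 read and 4.84 reads in the control (−0.79, FDR 0.0478).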

How the data were processed

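ATAC-seq was compared between 4 control and 3 PHF19 knockdown libraries. The authors deposited lists of increased and decreased regions with log2 mean normalised reads over all libraries and each group, a log2 fold, a p-value and an FDR, per the file headers. Distances to the TSS in base pairs and region widths were also deposited. Bowtie2 2.4.1, Picard 2.2.4, deepTools 1.5.12, MACS2 2.2.6 and build hg38 are named per the submitters' processing notes, with no role. Deposited gene starts equalled those of GRCh38 in only 0.137% of matched regions, and positions were read as hg19. Not given in the sources used here are the tool behind the folds, the normalisation, how regions were merged, and any transposase shift of reads. Means were raised from log2 to reads.

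Group columns were assigned by weight. The mean over all libraries was that of the groups weighted 3 to 4 (median 0.429 for the knockdown) in 98.5% of regions within 0.001. The number of tested regions came from FDR, rank and p-value, a step tested on simulated lists that lacked no passing region. It implies 8925 passing regions, more than the 8815 listed, and the others were not analysed here. Regions missing from the lists shift the ranks, which the simulation did not cover, so the number of tested regions is an estimate. Gene identifiers of 99.7% of regions matched RefSeq GRCh38.p14, which gave gene types, names and promoter windows (the first listed start of a gene). Shares have exact Clopper-Pearson intervals. No test of a list was made, and the only p-values are the authors'. The members and lists were chosen with earlier results of these data known. Genes named were up to 5 with the largest folds in each class, those of 6 role lists, those with at least 3 regions, splicing genes known from myeloid disease and, of each other list, the 3 largest, of which 1 is not reported here. Others were chosen after their values were seen. Alternatives were a stricter FDR or fold, promoters only, no chromosome 7, the difference of the group means, 1 region a gene and gene type. Scripts ran in Python 3.11.15 with scipy 1.17.1, pandas 2.3.3, matplotlib 3.10.9 and numpy 2.4.6.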

Additional observations from a re-analysis of the deposited data

How the results depend on the processing

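With an FDR of at most 0.01, 50 increased regions remained at 23.4% of the genes (all protein-coding genes 13.9%), with a median log2 fold of 1.04. At a log2 fold of 1 or more, 36 regions remained at 14.7% of the genes (all protein-coding genes 11.3%), with a median of 1.14. At that fold the class shares ran from 0 (SR and CPSF) to 23.1% (hnRNP). Stricter limits keep a subset of the listed regions, so these counts can only fall and the count of 0 decreased regions cannot change. Over all gene types that fit the rule, pseudogenes included, the share was 15.3%. The same share over all genes of every type was not computed, so this value cannot be set against the 25.2% of protein-coding genes. The difference of the group means gave a median of 1.16 in place of 0.92, and the cause was not tested. With 1 region a gene the promoter share was 90.7%. Promoters only, leaving out chromosome 7, protein-coding genes only and counting divergent partners (the last 2 chosen after seeing the data) moved no summary value beyond its interval. No paired analysis was possible because the files hold group means and no value per library, which also prevented leaving out a library. The read depth behind each mean is unknown.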
